A study of Schizosaccharomyces pombe with 6 samples.

Results

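The 62 regions called for the SUMO ligase subunit Nse2 in fission yeast (Schizosaccharomyces pombe), of 3896 regions in the 3 lists of the series, were set against the 3535 peaks called in cells without a tag. Each Nse2 region was represented by its summit, the base at which its signal peaked, and the summits were divided by whether that base lay inside an untagged peak. It did for 41 summits and did not for 21. The Nse2 regions covered 99.8% of the genome between them, so the summit is the only fine position each one gives. One strain carried Nse2-12Pk, that is, Nse2 with a Pk epitope tag, and the control strain carried no tag. No source used here gives further alleles of the strains or says whether the tagged strain was 1 clone. Both cultures grew exponentially in rich medium (YES), were mixed with budding yeast cells carrying Ku70-cMyc as a calibrator, crosslinked, and precipitated with the same anti-Pk antibody. There was 1 ChIP library per strain and the read depth is not given, so no test between strains was made. Each interval beside a share is the exact 95% binomial interval by Clopper and Pearson and covers counting error alone. The score is the authors' value per region, of unstated scale, and served only to rank regions within 1 list, with rank 1 the highest.

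Nse2 is a subunit of the Smc5/6 complex, a ring-shaped ATPase of the same family as cohesin and condensin. Smc5/6 acts in DNA repair and at stalled replication forks, and Nse2 attaches SUMO, a small protein related to ubiquitin, to its targets. The complex is known for its work at repeated loci such as ribosomal DNA and centromeres. A precipitation from cells without the tag measures the DNA that antibody and beads recover when the tagged protein is absent, so it is the reference for where a summit of the tagged strain stands apart.

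The summits of the highest Nse2 regions in unique coding sequence show how close the positions in both libraries came. The first 4 stretches surround summits inside an untagged peak, and their capitals run from the untagged summit to the Nse2 summit. The last 2 stretches surround summits outside every untagged peak, and the capital marks the Nse2 summit alone. All are 121 bases centred on the Nse2 summit, on the coding strand of the gene, from the RefSeq ASM294v3 reference.
adh1 (chrIII:1592076-1592196, plus strand): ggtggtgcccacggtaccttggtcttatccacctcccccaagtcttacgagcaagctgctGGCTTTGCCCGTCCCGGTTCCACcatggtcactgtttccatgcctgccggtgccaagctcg
thi2 (chrII:3941297-3941417, plus strand): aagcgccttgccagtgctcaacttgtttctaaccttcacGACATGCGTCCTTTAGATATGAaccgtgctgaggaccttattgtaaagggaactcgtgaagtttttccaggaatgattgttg
eno101 (chrII:2202322-2202442, plus strand): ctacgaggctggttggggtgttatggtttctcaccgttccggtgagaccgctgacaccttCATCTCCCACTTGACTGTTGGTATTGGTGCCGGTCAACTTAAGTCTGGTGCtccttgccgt
ssa2 (chrIII:2059016-2059136, plus strand): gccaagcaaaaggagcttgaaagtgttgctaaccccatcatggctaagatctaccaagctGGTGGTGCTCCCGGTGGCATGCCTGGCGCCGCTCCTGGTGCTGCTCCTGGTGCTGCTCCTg
rpp202 (chrII:2128161-2128281, minus strand): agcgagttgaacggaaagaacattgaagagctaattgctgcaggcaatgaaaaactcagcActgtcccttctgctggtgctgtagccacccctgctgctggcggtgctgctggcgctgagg
rpp103 (chrIII:2407891-2408011, minus strand): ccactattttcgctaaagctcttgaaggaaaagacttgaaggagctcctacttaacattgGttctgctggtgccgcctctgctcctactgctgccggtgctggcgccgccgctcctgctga

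Summits inside untagged peaks lay mostly in coding sequence and in long regions, and 18 of the 38 away from the rDNA were at genes listed for ribosomal proteins, translation factors, glycolysis and fermentation, chaperones, or thiamine and methionine synthesis. Of the 62 summits 41 were inside (66.1%, interval 53.0 to 77.7%), while untagged peaks covered 18.7% of the bases of the Nse2 regions. Regions with an inside summit had a median length of 179459 bp (3682 to 1548631 bp), and those with an outside summit 1194 bp (348 to 195201 bp). In regions of at least 10 kb, 36 of 39 summits were inside (92.3%, interval 79.1 to 98.4%). In shorter regions 5 of 23 were (21.7%, interval 7.46 to 43.7%), where untagged peaks covered 15.3% of the bases. The division thus went with region length. Regions with an outside summit held a median of 0 untagged peaks (0 to 62), and without such a peak a summit could only be outside. By score, 9 of the 10 highest Nse2 regions had an inside summit, 25 of the upper 31, and 16 of the lower 31. No summit lay within 50 bp of an edge of an untagged peak. The inside summit nearest to an edge of its peak was 54 bp from it (SPRRNA.49), and the outside summit nearest to a peak was 635 bp away (SPRRNA.44).

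**Figure D1:**
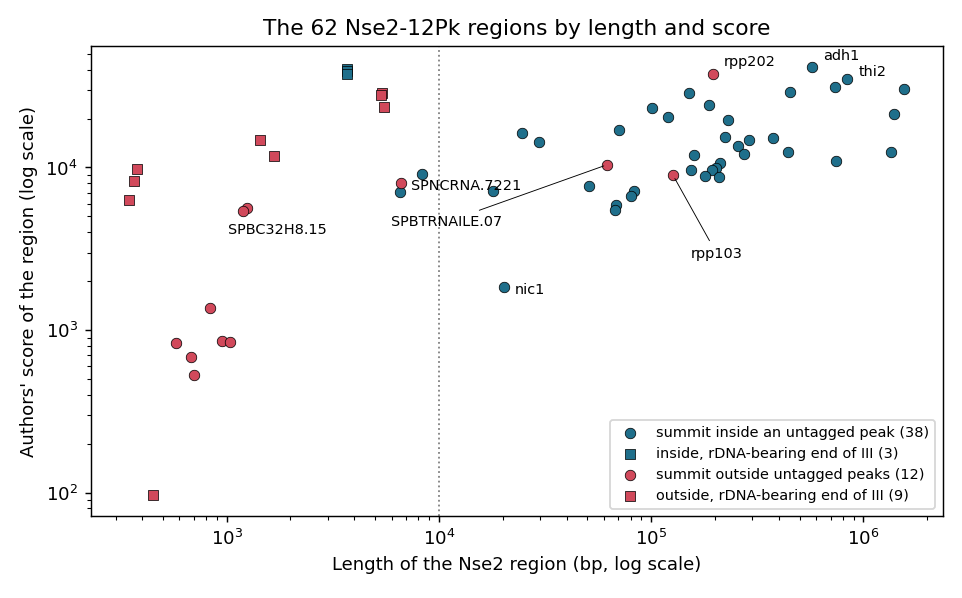
The 62 Nse2-12Pk regions by length in bp (horizontal, log scale) and authors' score (vertical, log scale), each point 1 region, coloured by whether its summit lay in an untagged peak, with squares for the rDNA-bearing ends of chromosome III and a dotted line at 10 kb. To the right of the line 36 of 39 points are inside, and the 3 outside are rpp202, rpp103 and SPBTRNAILE.07.

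Of the 38 inside summits away from the rDNA-bearing ends of chromosome III (the outer 30 kb at each end), 33 were in coding sequence (86.8%, interval 71.9 to 95.6%). Coding sequence makes up 56.9% of the genome. The same share was 96.0% for all 3535 untagged summits, which is above the interval of the Nse2 summits. For the 353 highest untagged summits it was 91.8%, which is within that interval. Counting members of a list within 200 bp of a summit, ribosomal protein genes had 6 (rps1001, rps1401, rps1402, rpl1802, rpl22 and rpl35), on 1.23% of the bases of the genome. Glycolysis and fermentation genes had 5 of the 38 (0.292% of bases). Translation factor genes had 3 (0.213%), heat shock and chaperone genes 2 (0.273%), and thiamine and methionine genes 2 (0.164%). In this order the lists hold 137, 17, 11, 14 and 8 genes, so most members of each had no summit. None of the 38 was at a histone gene (0.112% of bases), a plasma membrane transport gene of the list (0.239%), a SUMO pathway gene (0.28%) or an Smc5/6 gene (0.157%). The same held for 5S genes (0.162%), Tf2 retrotransposons (0.457%) and LTRs (1.3%). These 7 classes had 0 outside summits as well. The transport list leaves out itr2, nic1, fex1 and fex2, which held inside summits and are annotated as plasma membrane transporters or channels. Its count of 0 therefore describes that list and not all such genes. Every inside summit lies in an untagged peak, so the shares of that list are the closer reference. Ribosomal protein genes had 15.8% of the 38 Nse2 summits (interval 6.02 to 31.3%), 2.55% of all untagged summits and 12.7% of the 353 highest. Glycolysis and fermentation genes had 13.2% (interval 4.41 to 28.1%), 0.537% and 3.12%. Translation factor genes had 7.89% (interval 1.66 to 21.4%), 0.396% and 2.27%. Heat shock and chaperone genes had 5.26% (interval 0.644 to 17.7%), 0.424% and 1.7%. Thiamine and methionine genes had 5.26% (interval 0.644 to 17.7%), 0.198% and 1.13%. For ribosomal protein genes the share of Nse2 summits was thus near that of the highest untagged peaks. The interval also held that share for translation factor, chaperone, and thiamine and methionine genes, and lay above it for glycolysis and fermentation genes. The 353 highest peaks hold 30 of the 38 summits themselves, so the sets overlap and no excess can be read from the comparison. Together 18 of the 38 were at the first 5 lists, and 5 were at a tRNA gene (0.598% of bases), at an snRNA or snoRNA gene (0.293%) or in a centromere (1.15%). The lists were drawn up with these summits known, so the counts describe the set and support nothing about it.

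Of the 17 listed genes of glycolysis and fermentation, the 5 that held a summit ranged from Nse2 rank 1 to 19. The summit of the highest Nse2 region (score 41291; chromosome III, position 1592136) was in adh1, the alcohol dehydrogenase that makes ethanol, 22 bp from the summit of untagged peak 29 of 3535. It lay 73.9% of the way along the coding sequence. Its neighbours were snp27, 3487 bp to the left, and SPCC13B11.02C, 1266 bp to the right. The enolase gene eno101 (chromosome II, position 2202382) had Nse2 rank 8 with a score of 30303 and untagged rank 20. The gene pdc101, annotated as a pyruvate decarboxylase (chromosome I, position 102401), had Nse2 rank 15 with a score of 23079 and untagged rank 306. The pyruvate kinase gene pyk1 (chromosome I, position 3845472; score 20433) had Nse2 rank 17 and untagged rank 56. The aldolase gene fba1 (chromosome II, position 1689249; score 16920) had Nse2 rank 19 and untagged rank 101. In 3 of these 5 genes (adh1, pyk1 and fba1) the summits of both libraries were 3 to 22 bp apart, in eno101 50 bp and in pdc101 519 bp.

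Among vitamin and sulfur metabolism genes, thi2 was high in the Nse2 list and met26, snz1 and sua1 were nearer its middle. The genes snz1 and sua1 belong to no list. The summit in thi2, which codes for the enzyme that makes the thiazole part of thiamine, had Nse2 rank 6 (score 34808; chromosome II, position 3941357) and lay 21 bp from the summit of untagged peak 224. Higher untagged peaks lay elsewhere in the same Nse2 region. The methionine synthase gene met26 (Nse2 rank 21, untagged rank 67) had its summits 21 bp apart. At snz1, a gene of vitamin B6 synthesis (26 and 31), they were 17 bp apart. At sua1, the ATP sulfurylase gene of sulfate assimilation (30 and 356), they were 1 bp apart. These pairs of summits were thus nearly at the same base, while the untagged ranks ran from 31 to 356.

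Translation genes held 9 of the 38 summits. The elongation factor 1-alpha genes tef103 and tef101 had Nse2 ranks 10 and 18 (scores 28833 and 19695; chromosome II, position 626259, and chromosome III, position 268207). Their untagged ranks were 159 and 105, with summits 24 and 19 bp apart. Of the 252 words of 50 bases around these summits, 132 and 140 occur elsewhere in the genome. The copies share sequence, so they cannot be taken as independent sites. The third copy, tef102, held an untagged peak of rank 27 and no Nse2 summit. The gene tef5, for elongation factor 1-beta, had ranks 37 and 72. Small subunit protein genes rps1001 (28 and 11), rps1401 (29 and 19) and rps1402 (35 and 24) lay 32 to 36 bp from the untagged summit. The last 2 code for the same protein, uS11, and their summits were 67.9% and 69.5% along the coding sequence. The large subunit genes rpl1802 (42 and 55), rpl22 (45 and 1344) and rpl35 (51 and 634) lay 5 to 26 bp from the untagged summit. At rps1401, rpl1802 and apl2 a second protein-coding gene overlaps on the other strand, and ChIP does not tell strands apart.

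Chaperone genes and genes outside the lists held further summits, spread over the Nse2 ranks. The Hsp70 gene ssa2 (Nse2 rank 9, score 29073; chromosome III, position 2059076) lay in untagged peak 7, the highest untagged peak outside the rDNA, with summits 59 bp apart. The summit in mcp60, the mitochondrial Hsp60 gene (33 and 243), was 6 bp from the untagged summit. The genes ubi4, for polyubiquitin, psu1, annotated as a beta-glucosidase, atd1, an aldehyde dehydrogenase gene, gnd1, for 6-phosphogluconate dehydrogenase, and plb1, a lysophospholipase gene, had Nse2 ranks 22, 23, 16, 27 and 32. Their untagged ranks were 128, 28, 97, 119 and 235. The atd1 summit (score 21206; chromosome I, position 4454341) was 530 bp from the untagged summit, so in that gene the same peak held both but at separate points. Membrane carriers came lower, with anc1, the ADP/ATP carrier of mitochondria (38 and 239), itr2, an inositol transporter (46 and 874), and nic1, a nickel and cobalt transporter (55 and 2765). The nic1 peak was the only untagged peak in its region of 20272 bp and had the lowest rank of all 41. Of the remaining coding summits, SPAC8C9.04, a gene of unknown function (41 and 175), and apl2, for a subunit of a vesicle coat adaptor (47 and 244), were in chromosome arms.

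Of the 12 inside summits in repeated sequence away from the rDNA, 7 were at chromosome ends or in centromere 3, and the others were at tef103, tef101, ubi4, rps1401 and rps1402 on the arms. The fluoride exporter genes fex2 (Nse2 rank 49, untagged rank 208) and fex1 (53 and 431) and the telomere-linked helicase gene tlh1 (25 and 52) were within 100 kb of chromosome ends (4.3% of bases), as were rpl35 and nic1. All 252 of the 252 words around each of these 3 summits are repeated elsewhere. In centromere 3 the summits were at the non-coding RNA genes SPNCRNA.7192 (score 31404, position 1079604; 7 and 10), SPNCRNA.7210 (39 and 443) and SPNCRNA.7216 (48 and 924) and in the tRNA-Arg gene SPCTRNAARG.12 (20 and 329). In all, 12 of the 38 summits had a repeated word within 150 bp, and 5.36% of all genome positions have one that close. The only intergenic summit, 2 bp from the snoRNA gene snoU14, was in unique sequence (score 24090; chromosome II, position 1308632; 13 and 64) and 8 bp from the untagged summit.

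In the rDNA the 3 inside summits were at 1 point of the 28S gene in each copy. Bases within 200 bp of any rRNA gene other than 5S are 0.18% of the genome, and the rDNA-bearing ends are 0.477%. They were 50.4% along SPRRNA.48, 50.2% along SPRRNA.47 and 50.6% along SPRRNA.49, with scores of 40047, 39070 and 37338, Nse2 ranks 2, 3 and 5 and untagged ranks 4, 5 and 2. They stood at positions 18654, 7791 and 2445478 of chromosome III, and the distances to the untagged summit were 5, 3 and 328 bp. All words around them are repeated, so the 3 copies cannot be taken as 3 independent sites. The file headers say that only uniquely mapping reads entered. How such reads gave summits in repeated sequence was not examined.

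The matching untagged peaks were high in their own list, and the summits were close. The median untagged rank was 105 of 3535 over the 41 peaks (2 to 2765) and 123.5 away from the rDNA-bearing ends. The 353 highest untagged peaks, 9.99% of the list, held 33 of the 41 summits (80.5%, interval 65.1 to 91.2%), and the 100 highest, 2.83% of it, held 19. Seen from the untagged list, 33 of 353 of the highest peaks and 41 of 3535 peaks in all (1.16%) held an Nse2 summit, and each Nse2 region has 1 summit. The distance between summits had a median of 21 bp (0 to 872 bp) and was at most 50 bp in 32 of 41 (78.0%, interval 62.4 to 89.4%). Of the bases of these 41 untagged peaks 11.1% lie that close to the summit of their peak, and of the bases of all untagged peaks 15.2%. The distance was above 100 bp in 7: SPRRNA.49 (328 bp), pdc101 (519 bp), atd1 (530 bp), ubi4 (137 bp), gnd1 (872 bp), SPAC8C9.04 (109 bp) and fex1 (131 bp).

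**Figure D2:**
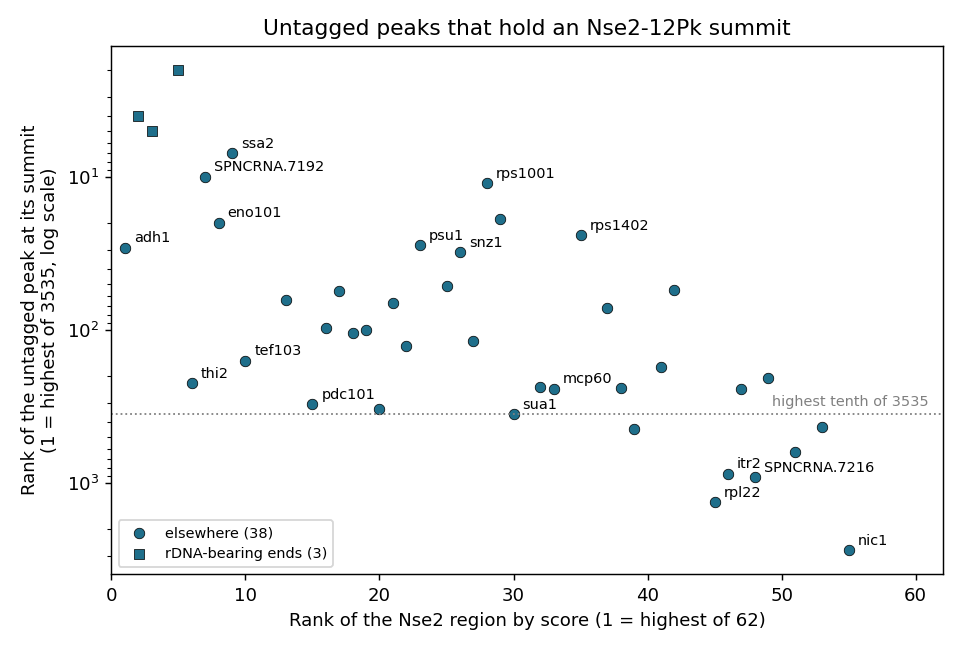
Rank by score of the 41 Nse2-12Pk regions with an inside summit (horizontal, 1 = highest of 62) against the rank of the untagged peak that held the summit (vertical, log scale, 1 = highest of 3535 at the top), each point 1 summit, with squares for the rDNA-bearing ends. Of the 41 points 33 lie at or above the dotted line at rank 353, and nic1 is the lowest at 2765.

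High Nse2 regions tended to have high untagged peaks. Spearman's rho between the ranks was 0.67 over 41 sites and 0.59 over the 38 away from the rDNA-bearing ends. This is a description across sites of 1 library each. Higher Nse2 regions also tended to be longer over the same 38 sites (rho = 0.59, with the longest region given rank 1). The part of region length in the first relation was not tested.

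A summit inside an untagged peak usually fell in 1 of the 3 highest of its region. Regions of at least 10 kb held a median of 57 untagged peaks (1 to 412). Among the 40 regions with an inside summit and 2 or more untagged peaks, the summit was in the highest of them in 14 (35.0%, interval 20.6 to 51.7%), in 1 of the 2 highest in 29, and in 1 of the 3 highest in 31. Of these regions 5 held only 2 or 3 untagged peaks, which fixes the last count for them, and at SPRRNA.48 and SPCTRNAARG.12 the summit was in the lowest peak. In the 35 regions with 4 or more untagged peaks the counts were 12 (34.3%, interval 19.1 to 52.2%), 25 and 26 (74.3%, interval 56.7 to 87.5%). At rps1001 it was the highest of 344 peaks, at SPNCRNA.7192 the highest of 237 and at adh1 the highest of 179. At eno101 it was second of 412, behind dbp2, an RNA helicase gene.

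The exceptions show where the order of the libraries differed. The largest were thi2 (twelfth of 224; the highest was at oga1), plb1 (ninth of 185; rho3), sua1 (eighth of 51; rpl26), tef103 (seventh of 51; rpl803), atd1 (seventh of 409; vht1) and itr2 (sixth of 29; rpl2001). Several of the highest untagged peaks away from the rDNA held no Nse2 summit. They were at rpp0, the stalk base protein of the ribosome (untagged rank 9), gar2, for nucleolin (12), the urea transporter gene SPBC23G7.13C (13) and pabp, for poly(A)-binding protein (14). The nearest Nse2 summits were 78325, 75953, 3087 and 64810 bp from them. A region reports 1 summit, so a second high point in it would not be listed.

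**Figure D3:**
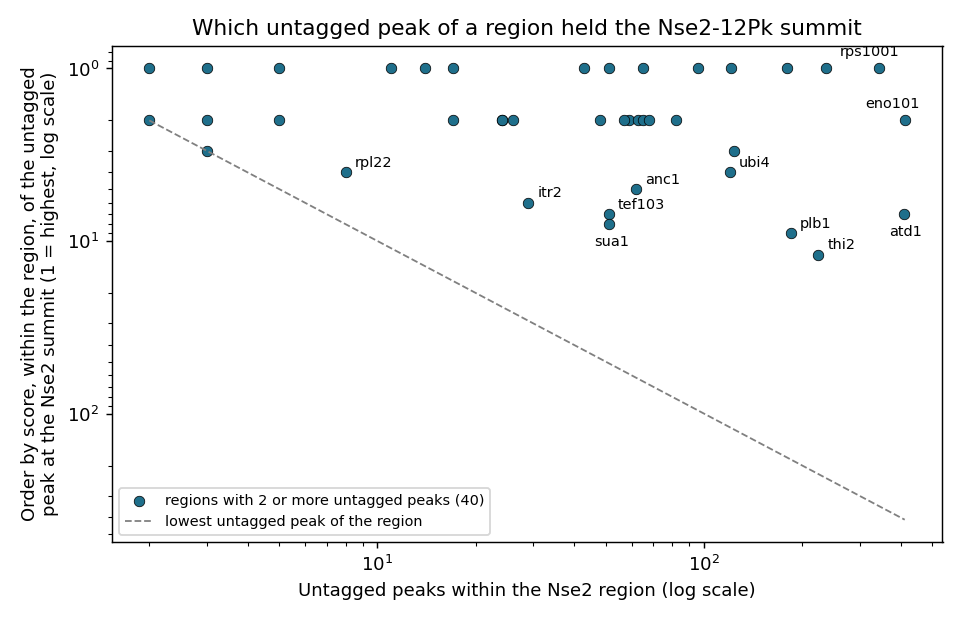
For the 40 Nse2-12Pk regions with an inside summit and at least 2 untagged peaks, the number of untagged peaks in the region (horizontal, log scale) against the order by untagged score of the peak at the Nse2 summit (vertical, log scale, 1 = highest at the top); points can coincide, and the dashed line is the lowest peak of a region. In 31 of 40 the order is 1 to 3, which includes 5 regions of 2 or 3 peaks, and thi2 is twelfth of 224.

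The 21 outside summits fell into 4 kinds of site: 9 in the rDNA-bearing ends, 3 in regions of at least 10 kb, 1 in centromere 3, and 8 in regions of 577 to 1245 bp on chromosome arms or near an end. Only the regions at rpp202, rpp103, SPBTRNAILE.07 and SPNCRNA.7221 held untagged peaks (62, 44, 16 and 3). In the other regions of this set the summit could only be outside. Over the 21 summits the median distance to the nearest untagged peak was 2156 bp (635 to 6664 bp). By score the outside set had ranks 4 to 62 (median 44), against 1 to 55 (median 26) for the inside set. It therefore held 1 region among the 10 highest and each of the 7 lowest.

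The region with the highest outside summit was at rpp202, which codes for P2, an acidic protein of the ribosomal stalk that recruits elongation factors. It had Nse2 rank 4 (score 37798) and ran over 195201 bp with 62 untagged peaks. Its summit (chromosome II, position 2128221) was 57.1% along the coding sequence, between the annotated mat1 and mat3 genes in the mating-type region (0.153% of the genome), in unique sequence. The nearest untagged peak was 2879 bp away in SPBC23G7.13C and ranked 13 of 3535, the highest of the region. The summit of this region was therefore not in that high untagged peak, and the gene SPBC23G7.14 lies between them. The neighbours of rpp202 are SPBC23G7.14, 89 bp to the left of the summit, and mat3-Mi, 4365 bp to the right.

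A second stalk gene had the other outside summit of a long region in coding sequence. The gene rpp103, for stalk protein P1, had Nse2 rank 40 (score 8938), with the summit 57.0% along the coding sequence (chromosome III, position 2407951). The nearest untagged peak, in the neighbouring gene nsa2, ranked 2362 and was 686 bp away. The genes beside it were nsa2, 337 bp to the left, and dhm1, 781 bp to the right. Bases within 200 bp of a stalk gene are 0.0616% of the genome. No untagged peak touched any of the 6 genes for P1 and P2 (rpp101, rpp102, rpp103, rpp201, rpp202 and rpp203). Such peaks touched 63.5% of ribosomal protein genes and 54.3% of protein-coding genes. The 6 genes are short, at 478 to 782 bp, and of protein-coding genes under 1000 bp 18.1% were touched. The 4 others had their nearest Nse2 summit 7807 bp (rpp203) to 318588 bp (rpp101) away.

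**Figure D4:**
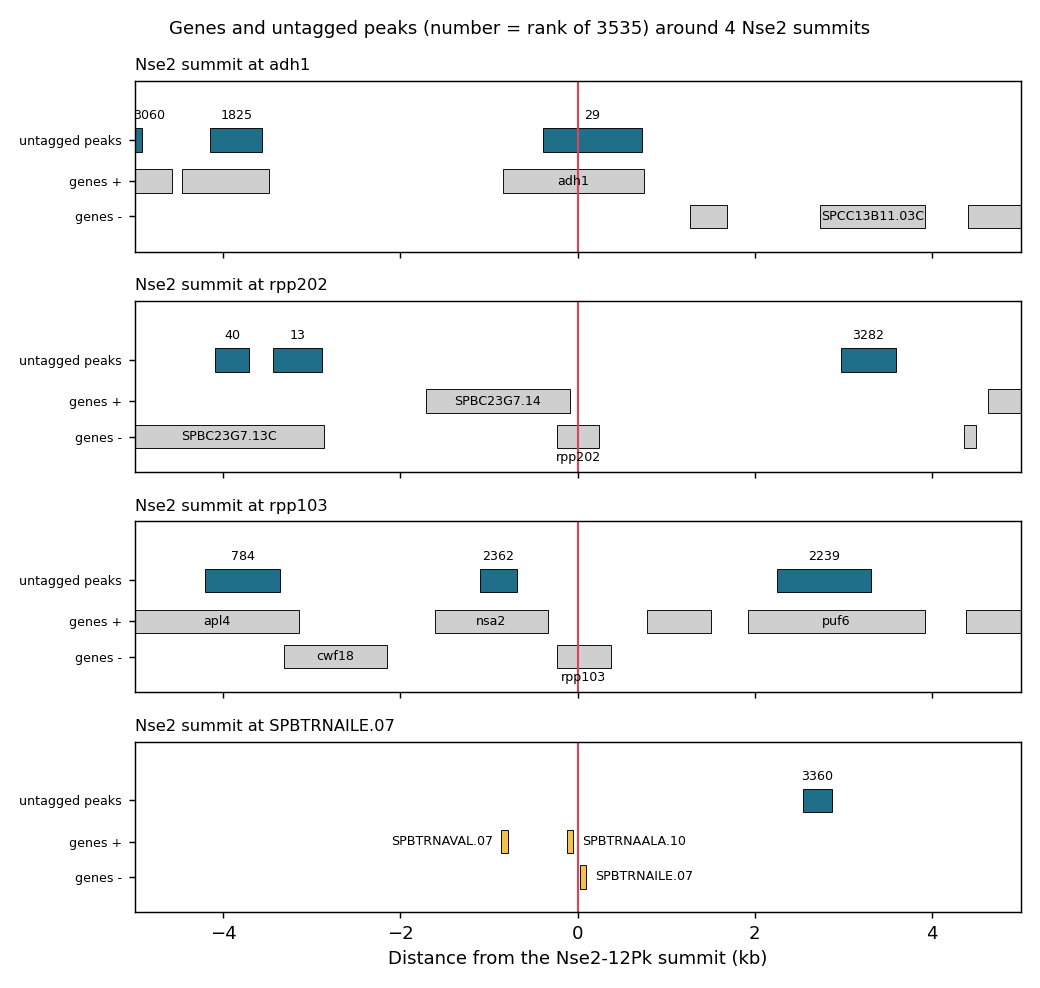
Genes by strand (grey for protein-coding, yellow for tRNA; non-coding RNA genes not drawn) and untagged peaks (blue, with their rank of 3535) within 5 kb of 4 Nse2-12Pk summits, by distance from the summit (red line, kb). The adh1 summit lies in peak 29, while those at rpp202, rpp103 and SPBTRNAILE.07 lie 2879, 686 and 2544 bp from the nearest untagged peak.

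The third was between tRNA genes of centromere 2. It was 26 bp from the tRNA-Ile gene SPBTRNAILE.07 and 48 bp from the tRNA-Ala gene SPBTRNAALA.10, with Nse2 rank 34 (score 10399; chromosome II, position 1630023). The nearest untagged peak ranked 3360 and was 2544 bp away. All 252 words around the summit are repeated elsewhere. In centromere 3, a region of 6600 bp had its summit in the non-coding RNA gene SPNCRNA.7221 (rank 44, score 8042), 1446 bp from the nearest untagged peak and also in repeated sequence. Of the 6 Nse2 summits in centromeres, 4 were thus inside and 2 outside.

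In the rDNA the outside summits again repeated from copy to copy. The 3 highest were in the 28S genes SPRRNA.47, SPRRNA.48 and SPRRNA.49 (Nse2 ranks 11, 12 and 14; scores 28761, 27885 and 23590), each 93.0% along the gene. They were 258, 256 and 275 bp from the end of their regions, beside the gap that parts them from the region with the inside summit of the same gene. Every base of those gaps lies in a repeated word. Their positions on chromosome III were 6301, 17170 and 2446953. The summits in the 18S genes SPRRNA.46 (rank 43) and SPRRNA.44 (rank 50) were both 39.3% along, in regions of 368 and 348 bp, and that in SPRRNA.45 (rank 36) was 71.1% along a copy that the end of the reference chromosome truncates. Upstream of the 18S genes, the summits beside SPRRNA.46 (rank 24) and in SPNCRNA.1094 (rank 31) were 698 and 699 bp from the gene, and that of rank 62, the lowest score of the list (97), was 1959 bp from SPRRNA.46. In all 9, each of the 252 words was repeated.

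The 8 short regions had low scores, with Nse2 ranks 52 and 54 for the first pair and 56 to 61 for the others. SPNCRNA.6662 (score 5636) was near the right end of chromosome II, 6082 bp from the helicase gene tlh2. SPBC32H8.15 (5402), a gene of unknown function, was between nep2, a NEDD8 protease gene 639 bp away, and utp24, an rRNA endonuclease gene 1980 bp away. A further summit (682) lay between SPBC32H8.15 and utp24, 285 bp from utp24. The summit in SPNCRNA.944 (852) was 3928 bp from SPAC1071.13 on its right and 1306 bp from pma1, the plasma membrane proton pump gene, whose untagged peak ranked 25 and began 2635 bp away. SPNCRNA.1425 (1364) was 849 bp from SPBC31A8.02 and 3640 bp from rtn1, a reticulon gene. SPBC16E9.20 (838) held the one summit in a 3′ untranslated region, between lsd90 (2246 bp) and rem1 (918 bp), 2257 bp from an untagged peak of rank 47. The gene SPBPJ4664.02, for a glycoprotein, held 2 summits (841 and 526), with dps1 and mfm3 as its neighbours. At both of these all words were repeated. Of these 8 regions, 5 had no repeated word at the summit and no repeated base in the neighbouring gaps (SPBC32H8.15, SPNCRNA.1425, SPNCRNA.944, SPBC16E9.20 and utp24). A region this short between gaps leaves its summit little room, so position within it carries little information.

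The sets were also compared for base composition, place within genes and repeats, with no test. Over 501 bp around the summit the AT content was 54.4% (median of 38; 45.7 to 64.7%) inside and 62.0% (median of 12; 55.3 to 71.7%) outside, both away from the rDNA-bearing ends. The genome has 63.9%, all untagged summits had a median of 58.7%, and the 353 highest had 54.7%. The inside median was thus close to that of the highest untagged peaks, and the ranges of the sets overlapped. In coding sequence the inside summits were a median of 67.9% of the way from start to stop (10.7 to 94.3%; 33 summits), with 22 of 33 beyond the middle (66.7%, interval 48.2 to 82.0%). The 353 highest untagged peaks had a median of 66.3%. Among the 12 outside summits away from the rDNA, 5 were in coding sequence (41.7%, interval 15.2 to 72.3%). Repeated words were absent from 26 of the 38 inside and 7 of the 12 outside summits.

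The library of the other ligase, Pli1-12Pk, offered positions that the division did not use. A Pli1 summit lay within 50 bp of 11 of 38 inside (28.9%, interval 15.4 to 45.9%) and 5 of 12 outside summits (41.7%, interval 15.2 to 72.3%) away from the rDNA-bearing ends, where bases that close to a Pli1 summit make up 0.24% of the genome. Within 500 bp (2.37% of the genome) the counts were 21 of 38 and 9 of 12. The intervals of the sets overlap. Of the outside summits within 50 bp, those at SPNCRNA.6662, SPBC16E9.20 and SPBPJ4664.02 (score 526) were in regions of 577 to 1245 bp, which leave a summit little room. The inside summits all lie in untagged peaks, whose own share near Pli1 summits was not computed. The genome shares are thus a loose reference, and the counts do not measure agreement between the ligases. At rpp202 the nearest Pli1 summit was 8599 bp away, at rpp103 16 bp, at SPBTRNAILE.07 7 bp, and at SPBC32H8.15 121317 bp.

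Genes of the Smc5/6 complex carried no summit of their own. The tagged gene nse2 lay inside the Nse2 region with its summit at rps1001, 69693 bp from that summit, and 789 bp from the nearest untagged peak. Of the 8 genes of the complex, smc6 and nse5 were touched by untagged peaks of rank 3018 and 3023. The nearest Nse2 summit was 8052 bp from nse5, in SPNCRNA.1425, and 650521 bp from nse4, the farthest of the 8.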

How the data were processed

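The deposited narrowPeak lists of the untagged and Nse2-12Pk ChIP libraries were compared, with the Pli1-12Pk list as a further reference; the 3 inputs were not analysed here. Each list came from 1 library. Per the file headers, only uniquely mapping S. pombe reads entered, and calling ran on a track of p-values. How such reads gave summits at which every word is repeated was not examined. Tools named in the submitters' processing notes, without version or role, are Bowtie2, MACS3, SAMtools and cutadapt, and the one build named is sacCer3, that of the calibrator. The unit is the authors' deposited score, of unstated scale. The summit offset is another deposited column, and the fold, p and q columns hold 0 throughout. Per the labels, signal was normalised to the calibrator. No source used here says how that entered the scores, and none gives the read depth.

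The fission yeast build is not stated. Sequence names match ASM294v3 and no region passes a chromosome end. Positions count from 1. A summit is the region's start plus its offset. Genes came from the RefSeq annotation; a summit took the gene whose coding sequence held it, else another gene there, else the nearest. Where a non-coding RNA gene overlapped a protein-coding gene, the latter is named. Named were all 62 regions, with fuller values for the 15 highest inside and outside, and the Smc5/6 genes. Sequences were taken from unique, single-exon coding windows in regions of at least 10 kb. Centromere intervals came from PomBase, and the mating-type region runs from the first to the last annotated mat gene. A repeated word is a 50-mer found more than once on either strand, counted within 150 bp of a summit. Code was written in Python 3.11.15 with NumPy 2.4.6, SciPy 1.17.1 and Matplotlib 3.10.9, and checked on planted positions. The members, lists and comparisons were chosen with earlier results of these data known, and the gene lists were written after the summits had been seen. The alternatives changed the untagged list, the matching rule, the class window, the ranking and the set of regions.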

Additional observations from a re-analysis of the deposited data

How the results depend on the processing

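The share of summits inside untagged peaks (66.1%) ran from 59.7% to 76.0% when the untagged list was limited by score, merged or matched within 250 bp, or the rDNA-bearing ends were left out. For regions of at least 10 kb (92.3%) the range was 84.6% to 92.3%. In 2 alternatives added after seeing the data, the share over all regions moved. It was 21.7% in regions shorter than 10 kb, most of which held no untagged peak, and 78.8% without summits in repeated sequence. For regions of at least 10 kb the latter gave 92.9%. Counts of outside summits did not change with windows of 50 or 500 bp in any gene class, those with 0 included. The median untagged rank was 105 by score, 116.5 over the 38 peaks elsewhere when the list was ranked anew without the rDNA-bearing ends (123.5 in the ranks of the full list), and 788 by peak length. The summit lay in the highest untagged peak of its region in 14 of 44 regions with 2 or more peaks, in 31 of 44 when any of the 3 highest counted, and in 6 of 44 by peak length. No paired analysis was possible because each strain has 1 ChIP library. Without replicates or depth, no difference between the strains was tested, and a region reports only its single highest position.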
